A study of Mus musculus with 9 samples.

Results

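The 8 genes Nrl, Crx, Nr2e3, Otx2, Neurod1, Rorb, Thrb and Rxrg encode transcription factors that govern how photoreceptors form and which genes they express. They were taken by gene symbol from the 13089 genes listed in each library, all 8 were listed, and all 8 were among the 12920 genes tested. Polyadenylated RNA of the whole eye was sequenced in mice of the strain A/J, of BALB/c and of C57BL/6J, in a series about strains whose retinas degenerate at different rates. All mice were wild type females aged 4 weeks, and no treatment was given. Each library was made from the pooled RNA of 5 mice, with 3 libraries for A/J, 3 for BALB/c and 3 for C57BL/6J. Libraries are named by strain and replicate number. Whether the 3 libraries of a strain stem from separate pools is not stated in the labels, so p-values cover only library-to-library spread, possibly technical. A whole eye also holds lens, cornea, pigment epithelium and muscle, and in such bulk tissue fewer photoreceptors and less RNA per photoreceptor cannot be told apart.

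Photoreceptor fate begins with OTX2, a homeodomain factor that switches on Crx, and CRX, a related homeodomain factor, then activates genes of both rods and cones. NRL, a basic leucine zipper factor, directs the rod fate and turns on Nr2e3, whose product, an orphan nuclear receptor, represses cone genes and acts with NRL and CRX on rod genes. RORB, another orphan nuclear receptor, acts upstream of Nrl, NEUROD1 is a basic helix-loop-helix factor needed for photoreceptor survival and cone opsin patterning, and THRB, a thyroid hormone receptor, with its partner RXRG sets the balance of cone opsins.

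The windows around the transcription starts of Nrl, Crx, Nr2e3 and Rorb are shown because these genes carry the main contrasts below, 3 that were high in 1 C57BL/6J library and Nr2e3, which was not. They are RefSeq windows on build GRCm38.p6, each of 300 bases, running 5′ to 3′ on the gene's strand. Capitals mark TAATC or its reverse complement GATTA, the core bound by CRX and OTX2, and TGCTGA or its reverse complement TCAGCA, the half-site of the element bound by NRL. Nrl is at chr14:55524203-55524502, Crx at chr7:15879906-15880205 and Nr2e3 at chr9:59950030-59950329, all on the minus strand. The 2 Rorb windows are at chr19:19111147-19111446 and chr19:19001068-19001367, also on the minus strand.
Nrl: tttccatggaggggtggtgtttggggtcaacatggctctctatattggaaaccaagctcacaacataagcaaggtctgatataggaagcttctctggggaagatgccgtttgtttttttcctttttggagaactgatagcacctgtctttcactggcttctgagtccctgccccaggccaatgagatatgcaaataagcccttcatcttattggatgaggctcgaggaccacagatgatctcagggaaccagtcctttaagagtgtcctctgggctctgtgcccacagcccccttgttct
Crx: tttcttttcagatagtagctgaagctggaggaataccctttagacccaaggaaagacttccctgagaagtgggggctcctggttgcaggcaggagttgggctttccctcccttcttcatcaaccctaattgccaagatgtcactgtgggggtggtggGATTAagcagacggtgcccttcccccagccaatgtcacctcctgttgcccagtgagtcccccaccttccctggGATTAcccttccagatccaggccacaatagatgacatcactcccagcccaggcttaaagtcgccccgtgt
Nr2e3: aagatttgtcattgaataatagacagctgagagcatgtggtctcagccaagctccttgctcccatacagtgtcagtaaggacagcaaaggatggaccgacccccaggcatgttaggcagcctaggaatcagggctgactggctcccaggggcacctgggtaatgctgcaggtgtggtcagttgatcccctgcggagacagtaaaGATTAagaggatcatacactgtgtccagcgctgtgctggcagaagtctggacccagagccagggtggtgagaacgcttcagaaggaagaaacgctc
Rorb, first window: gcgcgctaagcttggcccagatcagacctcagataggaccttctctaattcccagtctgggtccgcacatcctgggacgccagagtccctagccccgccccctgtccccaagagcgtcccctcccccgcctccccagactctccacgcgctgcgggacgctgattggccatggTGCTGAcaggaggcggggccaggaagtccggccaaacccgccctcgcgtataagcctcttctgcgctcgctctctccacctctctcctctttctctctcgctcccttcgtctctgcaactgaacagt
Rorb, second window: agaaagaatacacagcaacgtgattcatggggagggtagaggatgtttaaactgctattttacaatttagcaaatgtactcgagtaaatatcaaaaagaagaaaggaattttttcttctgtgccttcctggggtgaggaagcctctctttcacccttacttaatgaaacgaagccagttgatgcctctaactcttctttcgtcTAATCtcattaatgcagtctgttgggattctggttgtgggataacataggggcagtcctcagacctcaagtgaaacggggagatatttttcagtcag
The Crx window held GATTA 93 and 20 bases before the start, and the Nr2e3 window held it 46 bases before the start. The Nrl window held neither motif. The first Rorb window held TGCTGA 77 bases before the start, and the second held TAATC 47 bases before it. RefSeq gave 14 windows for the 8 genes, since some have several starts. TAATC, on either strand, was in 7 of these 14 windows, covering 6 of the 8 genes, and in 22.0% of all 32851 mouse windows. TGCTGA was in 4 of the 14 windows and in 19.5% of all windows. AGGTCA, a half-site of nuclear receptors, was in 2 of the 14 and in 16.3% of all, and CANNTG, the E-box of factors such as NEUROD1, was in 10 of the 14 and in 72.3% of all. TAATC and TGCTGA overlapped on 0 bases in these windows. A match describes the letters only and is not a mapped site.

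Levels are given as deposited, in RPKM, reads divided by transcript length and by the mapped reads of the library, so that genes of different length can be set side by side. The 8 genes spanned a wide range. Nrl averaged 386 RPKM over the 9 libraries and ranked 80 of 13089 genes, Nr2e3 averaged 211 RPKM (rank 165) and Crx 191 RPKM (rank 187). Neurod1 averaged 72.7 RPKM (rank 669) and Otx2 62.1 RPKM (rank 831). Rorb averaged 15.6 RPKM (rank 4324), Thrb 6.88 RPKM (rank 7801) and Rxrg 6.25 RPKM (rank 8219), so the factors tied to cones stood lowest. Nrl was the highest of the 8 in every library, and in every library Neurod1 was above Otx2, and Otx2 above Rorb. Nr2e3 stood above Crx except in C57BL/6J 3, where Crx had 356 RPKM and Nr2e3 215 RPKM. Neighbours in this order were not always separated. Libraries of Nr2e3 and Crx overlapped within A/J and within C57BL/6J, libraries of Neurod1 and Otx2 overlapped within all 3 strains, and libraries of Thrb and Rxrg overlapped within BALB/c and C57BL/6J.

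**Figure D1:**
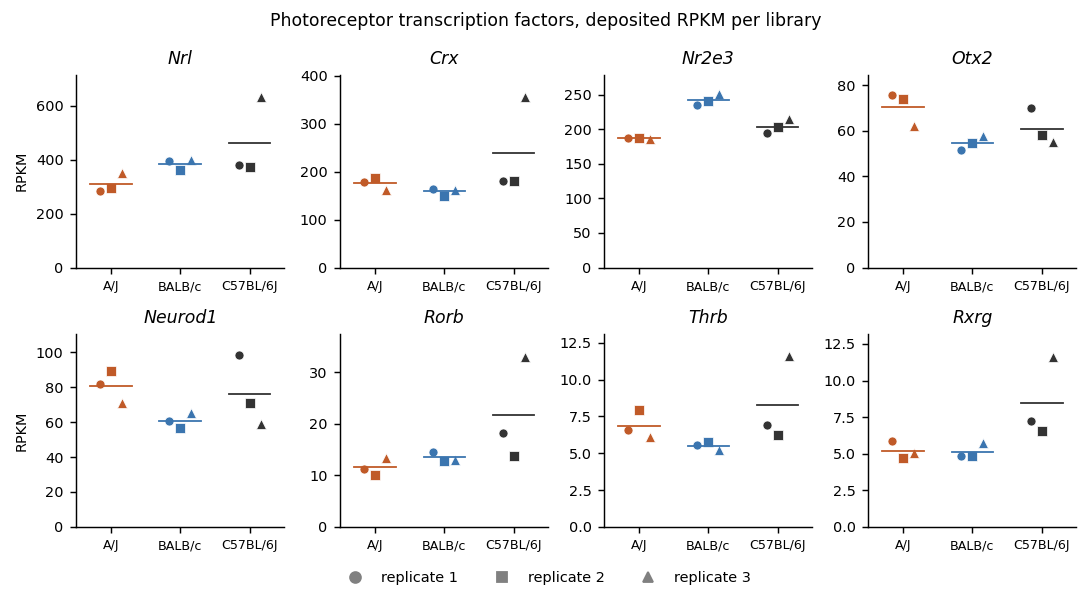
Deposited RPKM (vertical axis, from 0) of each of the 8 genes in eyes of A/J, of BALB/c and of C57BL/6J, with 1 symbol per library and a line at the mean of 3 libraries. C57BL/6J 3 (triangle) stands above the other libraries of all strains for Nrl, Crx, Rorb, Thrb and Rxrg, and the 3 BALB/c libraries of Nr2e3 stand above all others.

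One library stood apart for these genes. The summed level of the 8 genes was 832, 857 and 856 RPKM in A/J, 933, 887 and 960.2 RPKM in BALB/c, and 955, 912 and 1375 RPKM in C57BL/6J. C57BL/6J 3 thus gave the highest sum. Against the mean of C57BL/6J 1 and 2, its RPKM was 2.05-fold for Rorb, 1.97-fold for Crx, 1.76-fold for Thrb, 1.7-fold for Rxrg and 1.69-fold for Nrl. It was 1.08-fold for Nr2e3, 0.857-fold for Otx2 and 0.695-fold for Neurod1, so not all 8 were high together. On the scaled log2 scale, 5 of the 8 genes were more than 0.5 above the other C57BL/6J libraries, against 18.8% of all genes tested, 14 of 47 other regulators, 3 of 14 cone markers and 1 of 24 rod markers. The 8 genes were not alone in this, since 6 of 11 cornea and conjunctiva markers also passed that mark, with a median difference of 0.52 beside 0.56 for the 8 genes, while the medians were -0.82 for lens markers and -0.71 for muscle markers. The SD over all genes of the log2 difference from the other 2 libraries of the strain was 0.64 in C57BL/6J 3 and 0.59 in A/J 3, against 0.14 to 0.44 in the other 7 libraries. That difference correlated with the GC content of transcripts in most libraries (Spearman 0.38 in C57BL/6J 3 and 0.71 in A/J 3, and between -0.71 and 0.44 in the others, across 12693 genes, which are not independent replicates). Transcript GC content of the 8 genes ran from 41.6% for Rorb to 54.6% for Rxrg. The sum of RPKM times transcript length, as a percentage of the fixed total that the unit implies, was 118% in C57BL/6J 3 and 99.8% to 102.3% in the other 8 libraries. The part of these differences in the levels of the 8 genes was not tested, and the strain differences below are also given without C57BL/6J 3 and without A/J 3.

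**Figure D2:**
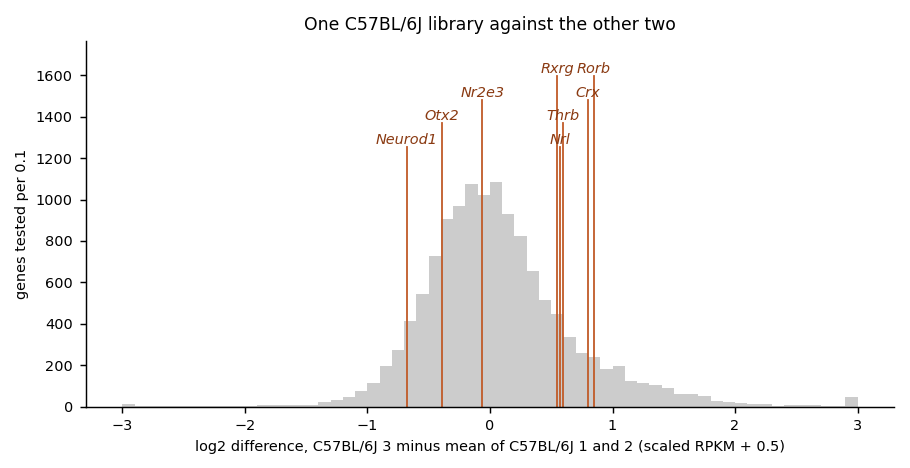
Distribution over all 12920 genes tested of the log2 difference between C57BL/6J 3 and the mean of C57BL/6J 1 and 2 (horizontal axis, differences beyond 3 in either direction are drawn at the edge), as genes per 0.1 (vertical axis), with the 8 genes as lines. Rorb, Crx, Thrb, Nrl and Rxrg lie between 0.55 and 0.85, and Neurod1 lies at -0.68.

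None of the 8 genes passed the test in any comparison of strains. Differences were tested with limma on log2(scaled RPKM + 0.5) over all genes, with a gene called at a Benjamini-Hochberg adjusted p under 0.05. In A/J against C57BL/6J, 0 of the 8 were called, where 2.69% of all genes were, and 3 had an unadjusted p under 0.05, as did 17.5% of all genes. In BALB/c against C57BL/6J, 0 were called, where 3.09% of all genes were, and 2 had an unadjusted p under 0.05, as did 13.8% of all genes. In A/J against BALB/c, 0 were called, where 2.48% of all genes were, and 1 had an unadjusted p under 0.05, as did 20.9% of all genes. The F test for any strain difference called 0, where it called 4.47% of all genes, and 2 had an unadjusted p under 0.05, as did 20.3% of all genes. The median log2 change of the 8 was -0.18 in A/J minus C57BL/6J, -0.22 in BALB/c minus C57BL/6J and 0.01 in A/J minus BALB/c, against -0.01 for all genes in each. The comparisons share libraries, so they are not independent of each other.

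**Figure D3:**
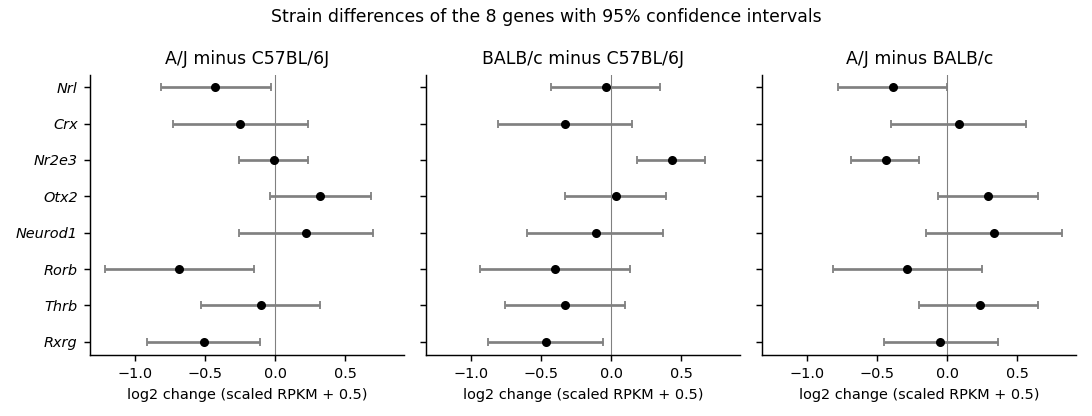
Log2 change of each of the 8 genes (horizontal axis, on the scaled RPKM + 0.5 scale) in the 3 comparisons of strains, with bars for the 95% confidence interval from limma. Nr2e3 lies at 0.43 in BALB/c minus C57BL/6J and at -0.44 in A/J minus BALB/c, and 0 of the 8 genes passed the adjusted threshold in any panel.

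Nr2e3, the nuclear receptor that holds rods to the rod fate, came closest to the threshold. It had 188, 188 and 186 RPKM in A/J 1 to 3, 236, 241 and 251 RPKM in BALB/c 1 to 3, and 194, 203 and 215 RPKM in C57BL/6J 1 to 3. Every BALB/c library was above every library of the other strains, and every A/J library was below every C57BL/6J library. The means were 187 ± 1.02 RPKM in A/J, 243 ± 7.53 RPKM in BALB/c and 204 ± 10.6 RPKM in C57BL/6J (SD, n = 3 each). In A/J minus BALB/c the log2 change was -0.44 (SE 0.11, 95% confidence interval -0.69 to -0.20, limma adjusted p = 0.077), and in BALB/c minus C57BL/6J it was 0.43 (SE 0.11, interval 0.18 to 0.67, adjusted p = 0.08). In A/J minus C57BL/6J it was -0.01 (interval -0.26 to 0.23, adjusted p = 0.94), or -0.12 (adjusted p = 0.45) with the values as deposited, on which the libraries did not overlap. The F test gave an adjusted p of 0.074. Without C57BL/6J 3, A/J minus BALB/c had the same log2 change of -0.44 and passed, with a limma adjusted p of 0.035, the only one of the 8 genes to pass where 4.72% of all genes did. Without A/J 3 it was -0.42 and passed, with an adjusted p of 0.027, again the only one of the 8, where 34.6% of all genes did. In the other 7 single omissions it did not pass, with log2 changes of -0.47 to -0.42 and adjusted p up to 0.38. In BALB/c minus C57BL/6J it passed in none of the 9 single omissions, with log2 changes of 0.40 to 0.47 and limma adjusted p from 0.055 to 0.38. The F test likewise called Nr2e3 alone of the 8 in both omissions, where it called 5.37% of all genes without C57BL/6J 3 and 32.8% without A/J 3. The interval for BALB/c minus C57BL/6J lay above 0, but with the values as deposited and no further scaling that log2 change was 0.25 (adjusted p = 0.24). Nr2e3 shared 1.8% of its exon bases with the same-strand gene Gm15507, and the part of such reads in its values was not tested.

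The level of Nr2e3 relative to Crx was highest in the BALB/c libraries, and a strain difference in this ratio was not tested. The ratio of Nr2e3 to Crx was 1.0 to 1.15 in A/J, 1.43 to 1.61 in BALB/c libraries and 0.605 to 1.12 in C57BL/6J. Summed rod marker levels were 17974 to 18163 RPKM in A/J, 19921 to 20621 RPKM in BALB/c libraries and 19855 to 23250.4 RPKM in C57BL/6J, and BALB/c and C57BL/6J overlapped. The summed level of 21 lens markers was 225544 to 244231 RPKM in A/J, 295539 to 304429 RPKM in BALB/c libraries and 156252 to 236534 RPKM in C57BL/6J, highest in BALB/c as for Nr2e3, and its part in the Nr2e3 values was not tested. With the libraries scaled on photoreceptor genes alone, Nr2e3 in BALB/c minus C57BL/6J was 0.50 and passed (limma adjusted p = 0.046), as did 3.44% of all genes, and in A/J minus BALB/c it was -0.26 (adjusted p = 0.16). After correction of each library for a smooth trend with transcript GC content, these Nr2e3 changes were 0.40 (adjusted p = 0.08) and -0.37 (adjusted p = 0.11).

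Among the genes whose pattern over the 9 libraries was most like that of Nr2e3 were Zfp36l1, an RNA-binding protein gene, and Mrps28, a mitochondrial ribosomal protein gene. The root mean square difference from Nr2e3, each gene centred on its own mean on the log2 scale, was 0.06 for Zfp36l1 and 0.067 for Mrps28. Nr2e3 itself varied around its own mean by a root mean square of 0.209.

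Nrl, the rod-determining leucine zipper factor, had 283, 296 and 351 RPKM in A/J 1 to 3, 395, 361 and 399 RPKM in BALB/c 1 to 3, and 380.0, 372 and 634 RPKM in C57BL/6J 1 to 3. The A/J libraries were below all others, BALB/c overlapped C57BL/6J 1 and 2, and C57BL/6J 3 was the highest. The means were 309.7 ± 36 RPKM in A/J, 385 ± 21.3 RPKM in BALB/c and 462 ± 149 RPKM in C57BL/6J (SD, n = 3 each). The log2 change was -0.43 in A/J minus C57BL/6J (SE 0.17, 95% confidence interval -0.82 to -0.03, limma adjusted p = 0.26). It was -0.39 in A/J minus BALB/c (SE 0.17, interval -0.78 to 0.0, adjusted p = 0.24) and -0.04 in BALB/c minus C57BL/6J (interval -0.43 to 0.35, adjusted p = 0.96). Without C57BL/6J 3 the log2 change of Nrl in A/J minus C57BL/6J was -0.24 (adjusted p = 0.47), and that in BALB/c minus C57BL/6J was 0.15 (adjusted p = 0.66). Omitting A/J 3 gave Nrl -0.50 in A/J minus C57BL/6J (adjusted p = 0.074) and -0.46 in A/J minus BALB/c (adjusted p = 0.086). After correction of each library for a smooth trend with transcript GC content, Nrl was -0.22 in A/J minus BALB/c (adjusted p = 0.47). With the libraries scaled on photoreceptor genes alone, Nrl was -0.17 in A/J minus C57BL/6J (adjusted p = 0.53). The ratio of Nrl to Crx was 1.58 to 2.16 in A/J, 2.4 to 2.45 in BALB/c libraries and 1.78 to 2.12 in C57BL/6J. Each BALB/c library was above every library of the other strains, and a strain difference in this ratio was not tested.

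Crx, the homeodomain factor shared by rods and cones, had 179, 187 and 162 RPKM in A/J 1 to 3, 165, 150.0 and 163 RPKM in BALB/c 1 to 3, and 179.7, 181 and 356 RPKM in C57BL/6J 1 to 3. On the deposited RPKM the A/J libraries overlapped those of both other strains, and every BALB/c library was below every C57BL/6J library. Divided by the size factors of the test (0.946 for BALB/c 1, 1.043 for C57BL/6J 1), BALB/c 1 was above C57BL/6J 1. The means were 176 ± 12.9 RPKM in A/J, 159 ± 8.07 RPKM in BALB/c and 239 ± 101 RPKM in C57BL/6J (SD, n = 3 each). The log2 change was -0.25 in A/J minus C57BL/6J (95% confidence interval -0.73 to 0.23, limma adjusted p = 0.47), -0.33 in BALB/c minus C57BL/6J (interval -0.81 to 0.15, adjusted p = 0.59) and 0.08 in A/J minus BALB/c (interval -0.40 to 0.56, adjusted p = 0.83). Without C57BL/6J 3 the Crx log2 changes against C57BL/6J were 0.01 in A/J and -0.07 in BALB/c. Omitting A/J 3 gave Crx -0.18 in A/J minus C57BL/6J and 0.15 in A/J minus BALB/c.

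Otx2, the factor upstream of Crx that bipolar cells and pigment epithelium also express, had 75.9, 73.9 and 62.1 RPKM in A/J 1 to 3, 51.7, 54.9 and 57.8 RPKM in BALB/c 1 to 3, and 70.1, 58.1 and 54.9 RPKM in C57BL/6J 1 to 3. Every A/J library was above every BALB/c library, and C57BL/6J overlapped both. The means were 70.6 ± 7.45 RPKM in A/J, 54.8 ± 3.05 RPKM in BALB/c and 61.0 ± 8.01 RPKM in C57BL/6J (SD, n = 3 each). Its log2 change was 0.29 in A/J minus BALB/c (95% confidence interval -0.07 to 0.65, limma adjusted p = 0.30), 0.32 in A/J minus C57BL/6J (interval -0.04 to 0.68, adjusted p = 0.31) and 0.03 in BALB/c minus C57BL/6J (interval -0.33 to 0.39, adjusted p = 0.97). With C57BL/6J 3 omitted, Otx2 was 0.19 in A/J minus C57BL/6J and -0.10 in BALB/c minus C57BL/6J. With A/J 3 omitted it was 0.40 in A/J minus BALB/c (adjusted p = 0.082) and 0.43 in A/J minus C57BL/6J (adjusted p = 0.072). After GC correction the Otx2 change in A/J minus BALB/c was 0.12 (adjusted p = 0.64). With the libraries scaled on photoreceptor genes alone, Otx2 was 0.57 in A/J minus C57BL/6J (adjusted p = 0.054). Otx2 shared 3.6% of its exon bases with the antisense gene Otx2os1 and 4.0% with Gm49154, and the counting rule for shared bases is not given.

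Neurod1, the helix-loop-helix factor, had 82.1, 89.4 and 71.2 RPKM in A/J 1 to 3, 60.8, 56.7 and 65.4 RPKM in BALB/c 1 to 3, and 98.5, 71.3 and 59.0 RPKM in C57BL/6J 1 to 3. As for Otx2, every A/J library was above every BALB/c library, and C57BL/6J overlapped both. The means were 80.9 ± 9.17 RPKM in A/J, 60.9 ± 4.34 RPKM in BALB/c and 76.3 ± 20.2 RPKM in C57BL/6J (SD, n = 3 each). Its log2 change was 0.33 in A/J minus BALB/c (95% confidence interval -0.15 to 0.82, limma adjusted p = 0.36), 0.22 in A/J minus C57BL/6J (interval -0.26 to 0.70, adjusted p = 0.53) and -0.11 in BALB/c minus C57BL/6J (interval -0.60 to 0.37, adjusted p = 0.90). With C57BL/6J 3 omitted, Neurod1 was -0.01 in A/J minus C57BL/6J and -0.34 in BALB/c minus C57BL/6J (adjusted p = 0.41). With A/J 3 omitted it was 0.44 in A/J minus BALB/c (adjusted p = 0.16) and 0.33 in A/J minus C57BL/6J. The Neurod1 change in A/J minus BALB/c after GC correction was 0.04 (adjusted p = 0.92). With the libraries scaled on photoreceptor genes alone, it was 0.51 (limma adjusted p = 0.15). In A/J minus C57BL/6J that scaling gave Neurod1 0.47 (adjusted p = 0.14). Neurod1 shared 7.4% of its exon bases with the same-strand gene Cerkl and 5.6% with the antisense gene Gm26755, so its level is uncertain. Cerkl, a gene tied to retinal degeneration in people, was named after its values were seen, and had 21.2, 22.5 and 27.0 RPKM in A/J, 22.3, 21.6 and 25.7 RPKM in BALB/c, and 6.51, 5.32 and 6.54 RPKM in C57BL/6J. The part of these reads in the Neurod1 values was not tested.

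Rorb, the orphan receptor upstream of Nrl, had 11.3, 10.1 and 13.4 RPKM in A/J 1 to 3, 14.6, 12.8 and 13.1 RPKM in BALB/c 1 to 3, and 18.3, 13.8 and 32.9 RPKM in C57BL/6J 1 to 3. The A/J libraries were below all C57BL/6J libraries, and BALB/c overlapped both strains. The means were 11.6 ± 1.66 RPKM in A/J, 13.5 ± 0.965 RPKM in BALB/c and 21.7 ± 9.99 RPKM in C57BL/6J (SD, n = 3 each). Rorb had a log2 change of -0.69 in A/J minus C57BL/6J (SE 0.24, 95% confidence interval -1.22 to -0.15, limma adjusted p = 0.20), -0.40 in BALB/c minus C57BL/6J (interval -0.94 to 0.13, adjusted p = 0.53) and -0.29 in A/J minus BALB/c (interval -0.82 to 0.25, adjusted p = 0.46). Without C57BL/6J 3 it was -0.40 in A/J minus C57BL/6J (adjusted p = 0.33) and -0.12 in BALB/c minus C57BL/6J (adjusted p = 0.79). Omitting A/J 3 gave Rorb -0.78 in A/J minus C57BL/6J (adjusted p = 0.055) and -0.37 in A/J minus BALB/c. After GC correction Rorb was -1.0 in A/J minus C57BL/6J (adjusted p = 0.16) and -0.65 in A/J minus BALB/c (adjusted p = 0.35). With the libraries scaled on photoreceptor genes alone, Rorb was -0.44 in A/J minus C57BL/6J (limma adjusted p = 0.22).

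Thrb, the thyroid hormone receptor gene that cones need for the green opsin, had 6.6, 7.94 and 6.08 RPKM in A/J 1 to 3, 5.54, 5.76 and 5.2 RPKM in BALB/c 1 to 3, and 6.93, 6.26 and 11.6 RPKM in C57BL/6J 1 to 3. On the deposited RPKM the BALB/c libraries were below all others, and A/J overlapped C57BL/6J. Divided by the size factors of the test (0.931 for BALB/c 2, 1.007 for A/J 3), BALB/c 2 was above A/J 3. The means were 6.87 ± 0.96 RPKM in A/J, 5.5 ± 0.282 RPKM in BALB/c and 8.26 ± 2.91 RPKM in C57BL/6J (SD, n = 3 each). The log2 change was -0.10 in A/J minus C57BL/6J (95% confidence interval -0.53 to 0.32, limma adjusted p = 0.74), -0.33 in BALB/c minus C57BL/6J (interval -0.76 to 0.10, adjusted p = 0.51) and 0.23 in A/J minus BALB/c (interval -0.20 to 0.65, adjusted p = 0.46). With C57BL/6J 3 omitted, Thrb was 0.09 in A/J minus C57BL/6J and -0.13 in BALB/c minus C57BL/6J (adjusted p = 0.75). With A/J 3 omitted it was -0.01 in A/J minus C57BL/6J and 0.32 in A/J minus BALB/c, and after GC correction it was -0.33 in A/J minus C57BL/6J and -0.04 in A/J minus BALB/c. Values are per gene, so the isoforms are not separated.

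Rxrg, the retinoid receptor that pairs with THRB in cones, had 5.84, 4.69 and 5.02 RPKM in A/J 1 to 3, 4.81, 4.82 and 5.71 RPKM in BALB/c 1 to 3, and 7.2, 6.52 and 11.64 RPKM in C57BL/6J 1 to 3. A/J and BALB/c overlapped, and every C57BL/6J library was above both. The means were 5.18 ± 0.592 RPKM in A/J, 5.11 ± 0.517 RPKM in BALB/c and 8.45 ± 2.78 RPKM in C57BL/6J (SD, n = 3 each). The log2 change was -0.51 in A/J minus C57BL/6J (SE 0.18, 95% confidence interval -0.92 to -0.11, limma adjusted p = 0.21), -0.47 in BALB/c minus C57BL/6J (SE 0.18, interval -0.88 to -0.06, adjusted p = 0.28) and -0.05 in A/J minus BALB/c (interval -0.45 to 0.36, adjusted p = 0.88). Without C57BL/6J 3 it was -0.33 in A/J minus C57BL/6J (adjusted p = 0.41) and -0.29 in BALB/c minus C57BL/6J (adjusted p = 0.45). Omitting A/J 3 gave Rxrg -0.48 in A/J minus C57BL/6J (adjusted p = 0.095) and -0.01 in A/J minus BALB/c. With the libraries scaled on photoreceptor genes alone, Rxrg was -0.28 in A/J minus C57BL/6J (limma adjusted p = 0.30). In BALB/c minus C57BL/6J it was then -0.40 (adjusted p = 0.37). After GC correction these Rxrg changes were -0.38 (adjusted p = 0.27) and -0.50 (adjusted p = 0.14). Thrb was above Rxrg in every A/J library, with a ratio of 1.13 to 1.69. BALB/c libraries fell on both sides of equality, their ratios running from 0.911 to 1.2. The C57BL/6J ratios were only slightly below equality, at 0.96 to 0.997. In C57BL/6J 3 the levels were 11.6 RPKM for Thrb and 11.64 RPKM for Rxrg. Precision at such levels could not be given, and a strain difference in this ratio was not tested.

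On the deposited RPKM, libraries of the strains compared did not overlap for several of the 8 genes, none of which passed the test. Scaling by size factor, as in the test, made some of these overlap. These were Nr2e3 in A/J and C57BL/6J, Crx in BALB/c and C57BL/6J, and Thrb in A/J and BALB/c. The counts below are without that scaling. Between A/J and C57BL/6J, 4 of the 8 did not overlap, where 16.3% of all genes did not, and all 4 were lower in A/J (Nrl, Nr2e3, Rorb and Rxrg), where 11.0% of all genes were, and 0 were higher, where 5.26% were. Between BALB/c and C57BL/6J, 4 did not overlap, where 33.4% of all genes did not. Nr2e3 was the higher one in BALB/c, where 6.0% of all genes were, and Crx, Thrb and Rxrg were the lower ones, where 27.4% of all genes were. Between A/J and BALB/c, 5 did not overlap, where 33.1% of all genes did not. Otx2, Neurod1 and Thrb were higher in A/J, where 23.3% of all genes were, and Nrl and Nr2e3 were lower, where 9.78% were.

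Leaving out both A/J 3 and C57BL/6J 3 changed the calls among the 8 genes and among all genes. These libraries had the largest SD of the log2 difference from their own strain (0.59 and 0.64). Omitting them lowers the spread that limma estimates, so the calls below are not evidence of strain differences beyond the main fit. With A/J and C57BL/6J at 2 libraries each, 6 of the 8 genes were called in A/J against BALB/c, where 60.2% of all genes were. Nrl (log2 change -0.46, limma adjusted p = 0.0021), Nr2e3 (-0.42, 0.0033) and Rorb (-0.37, 0.023) were lower in A/J, and Otx2 (0.40, 0.0065), Neurod1 (0.44, 0.011) and Thrb (0.32, 0.03) were higher. In A/J against C57BL/6J, Nrl (-0.31, 0.037) and Rorb (-0.49, 0.016) were called lower in A/J, 2 of the 8 where 39.4% of all genes were called. In BALB/c against C57BL/6J, Nr2e3 was called higher in BALB/c (0.40, 0.017), 1 of the 8 where 14.7% of all genes were called. The F test then called 5 of the 8, where 61.6% of all genes were called.

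Most relatives of the 8 genes were measured too, and in several families another member stood higher in whole eye. Of 18 relatives, 14 were listed, and 0 of the 14 were called by limma in any comparison, with 5, 0 and 4 at an unadjusted p under 0.05 in A/J minus C57BL/6J, in BALB/c minus C57BL/6J and in A/J minus BALB/c. Without A/J 3, 6 of the 14 were called in A/J against C57BL/6J, where 28.2% of all genes were, and 8 in A/J against BALB/c, where 34.6% of all genes were. Thra, the other thyroid hormone receptor, averaged 70.0 RPKM over the 9 libraries, 4.87 to 14.2 times Thrb in the same library. Rxra and Rxrb, the more widely expressed retinoid X receptors, were above Rxrg in every library, by 1.69 to 3.56 times for Rxra and 2.23 to 5.07 times for Rxrb. Rora was above Rorb in every library except C57BL/6J 3, where Rora had 23.8 RPKM and Rorb 32.9 RPKM. By contrast Nr2e3 at 211 RPKM was far above its closest relative Nr2e1, a neural stem cell receptor gene, at 3.9 RPKM, and Nrl at 386 RPKM was above Maf, a lens-expressed relative, at 21.9 RPKM. Neurod4 averaged 27.9 RPKM, below Neurod1 in every library.

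**Figure D4:**
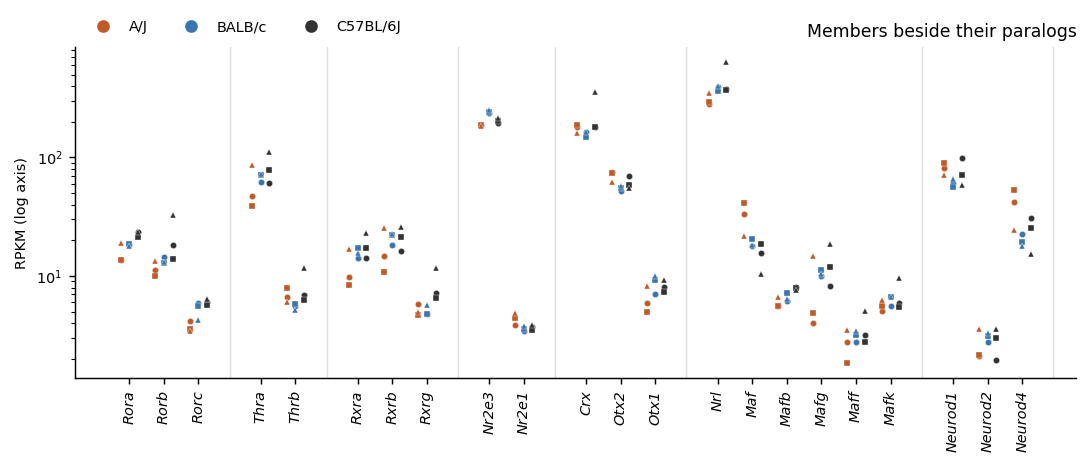
Deposited RPKM (vertical axis, log scale) of the 8 genes and their listed relatives, grouped by family, in A/J (orange), BALB/c (blue) and C57BL/6J (dark), with circles, squares and triangles for replicates 1, 2 and 3. Nrl, Nr2e3 and Neurod1 lie above their relatives, Crx and Otx2 lie above Otx1, and Thrb and Rxrg lie below their relatives.

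Photoreceptor genes that these factors regulate varied in both directions. Of 24 rod markers tested, 1 was called in A/J against C57BL/6J, Sag, rod arrestin, at 2459 ± 411 RPKM in A/J and 1221 ± 81.8 RPKM in C57BL/6J (SD, n = 3 each), with a log2 change of 1.11 and a limma adjusted p of 0.0065 (0.069 with these strains fitted alone). In BALB/c against C57BL/6J 0 rod markers were called, with 4 at an unadjusted p under 0.05, as were 13.8% of all genes. In A/J against BALB/c 1 was called, Guca1a, a guanylate cyclase activator of rods and cones, at 432 ± 62 RPKM in A/J and 670.4 ± 37.1 RPKM in BALB/c (log2 change -0.71, adjusted p = 0.048). The Guca1a call held only in the omissions of A/J 3, C57BL/6J 2 and C57BL/6J 3, and its limma adjusted p in the others reached 0.26. Without A/J 3, 9 of the 24 rod markers were called in A/J against C57BL/6J, 1 in BALB/c against C57BL/6J and 11 in A/J against BALB/c, where the shares of all genes called were 28.2%, 4.89% and 34.6%. Omitting C57BL/6J 3 instead gave 3 calls in A/J against BALB/c, where 4.72% of all genes were called. The median log2 change of the rod markers was -0.28 in A/J minus C57BL/6J, -0.00 in BALB/c minus C57BL/6J and -0.31 in A/J minus BALB/c, against -0.01 for all genes in each.

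Of 14 cone markers, Pde6c, the cone phosphodiesterase subunit, was called lower against C57BL/6J in both albino strains. It had 4.37 ± 0.582 RPKM in A/J, 2.03 ± 0.44 RPKM in BALB/c and 23.7 ± 8.57 RPKM in C57BL/6J (SD, n = 3 each), with log2 changes of -2.16 in A/J and -3.06 in BALB/c (limma adjusted p = 0.00072 and 8.2e-05), and both calls held with each library left out in turn. In A/J against BALB/c the only cone marker called was Guca1a, which is in both lists. The cone medians were -0.17, -0.37 and 0.15 in A/J minus C57BL/6J, in BALB/c minus C57BL/6J and in A/J minus BALB/c. Without A/J 3, 5 cone markers were called in A/J against C57BL/6J, 2 in BALB/c against C57BL/6J and 6 in A/J against BALB/c, beside 28.2%, 4.89% and 34.6% of all genes. With C57BL/6J 3 omitted instead, 2 cone markers were called in A/J against BALB/c, beside 4.72% of all genes.

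Other regulators of the network did not pass either. Of 60 listed by knowledge of the field, 48 were found and 47 tested, and 0 were called by limma in each comparison, with 8, 5 and 4 at an unadjusted p under 0.05 in A/J minus C57BL/6J, in BALB/c minus C57BL/6J and in A/J minus BALB/c. Without A/J 3 the counts called were 15, 3 and 16, beside 28.2%, 4.89% and 34.6% of all genes, so the regulators were called at about the share of all genes. The counts were 0, 1 and 1 without C57BL/6J 3, beside 2.24%, 3.08% and 4.72% of all genes. Their medians were -0.24, -0.07 and -0.09. Pax6, a master regulator of eye development, and Esrrb, a rod survival receptor, had the highest means, 88.3 and 55.8 RPKM. Of 29 nuclear receptor and thyroid hormone genes, Ppara, a lipid-sensing receptor gene, was called. It was lower in BALB/c than in C57BL/6J (log2 change -1.65, limma adjusted p = 0.0093) and higher in A/J than in BALB/c (1.48, adjusted p = 0.019). Ppara averaged 3.09 ± 0.495 RPKM in A/J, 0.75 ± 0.07 RPKM in BALB/c and 4.15 ± 2.38 RPKM in C57BL/6J (SD, n = 3 each). The BALB/c libraries, at 0.82, 0.75 and 0.68 RPKM, were all below the 1 RPKM required for testing. Ppara was therefore tested only through its levels in A/J and C57BL/6J, and its BALB/c levels are near the added 0.5. Omitting BALB/c 2 or 3 ended its call in BALB/c against C57BL/6J (adjusted p up to 0.062). In A/J against BALB/c the call held only when A/J 3 or a C57BL/6J library was omitted (adjusted p otherwise up to 0.12). The medians of these 29 genes were -0.27, -0.08 and -0.17. In A/J against C57BL/6J 0 of them were called, with 7 at an unadjusted p under 0.05, as were 17.5% of all genes. Without A/J 3, 12 were called in A/J against C57BL/6J and 18 in A/J against BALB/c, beside 28.2% and 34.6% of all genes. Omitting C57BL/6J 3 instead gave 2 calls in A/J against BALB/c, beside 4.72% of all genes.

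**Figure D5:**
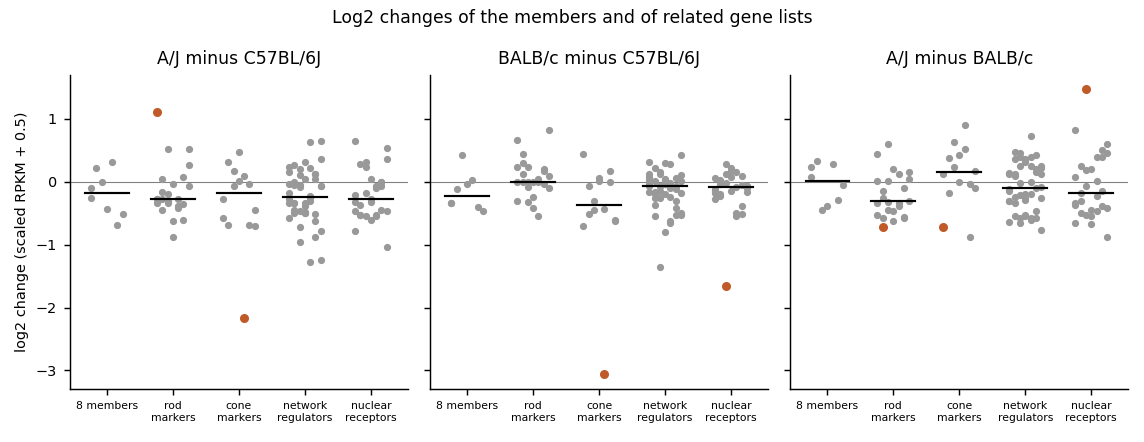
Log2 changes (vertical axis, scaled RPKM + 0.5) of the 8 genes, rod markers, cone markers, other network regulators and nuclear receptor genes in the 3 comparisons, with 1 point per gene, orange for genes called and a line at the median. The 8 genes lie between -0.69 and 0.43, and the lowest point is Pde6c at -3.06 in BALB/c minus C57BL/6J.

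Markers of the other cells of the eye were present in every library, and no tested gene of these lists was listed at 0 in any library. The genes called from them were Prkca and Cabp5 of bipolar cells, Nefl, Nefm and Gad2 of amacrine and ganglion cells, Abca8a of Müller glia, Cryga and Crygf of the lens, Mb and Actn3 of muscle, and Krt13, Krt15 and Krt4 of cornea and conjunctiva. They gave 22 calls over the 3 comparisons, of which 8 held with each library left out in turn and 14 were lost in at least 1 omission (adjusted p up to 0.22). Of the pigment epithelium markers 0 were called by limma, with 2, 1 and 3 of 12 at an unadjusted p under 0.05 in A/J minus C57BL/6J, in BALB/c minus C57BL/6J and in A/J minus BALB/c, and Dct and Ttr had the highest means, 517 and 488 RPKM. The 21 lens markers had a median log2 change of 0.79 in BALB/c minus C57BL/6J. Of these, 15 had an unadjusted p under 0.05, as did 13.8% of all genes. The part of these cell types in the levels of the 8 genes was not tested.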

How the data were processed

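RNA of whole eyes was sequenced in 9 libraries, 3 per strain. The authors deposited 1 table per library with a gene symbol and a value that the headers give no unit for. The deposited values were taken as RPKM because value times transcript length summed to 99.8% to 102.3% of the RPKM total in 8 libraries and to 118% in C57BL/6J 3. CASAVA 1.7, GenomeStudio and build mm9 are named per the submitters' processing notes. How reads were counted, with which gene models and at what length, is not given in the sources used here. Depth is likewise unknown, since at no depth tried did most low values fall near whole numbers of reads, so no counting interval is given. At the best depth of any library, 37.7% of them came within 0.1 of a whole number. Even spread would give 20% at a single fixed depth, which is not the yardstick for the best of many depths.

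Size factors by median of ratios (0.931 to 1.158) scaled each library, and log2 values were formed after adding 0.5, which understates changes of low genes. Genes with at least 1 RPKM in at least 3 libraries were tested (12920, leaving out 169) with limma 3.58.1 in R 4.3.3, using its trended and robust prior variance. All 9 libraries entered 1 fit with strain as the only term. All tests were two-sided, p-values were adjusted over all genes tested by the Benjamini-Hochberg method, and adjusted p-values and confidence intervals of genes are from this fit. Means and SDs are of deposited RPKM. The steps were tested on simulated data with independent noise for each gene and library, which lacks the GC-linked deviations described above. In addition, 21 alternative settings were tried.

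The 8 genes and the 12 gene lists were chosen with earlier results of these data known. Of 252 list genes, 220 were listed. Some genes that the rules would name are not reported here. From each list up to 4 called genes were named by smallest adjusted p, or the 2 with the highest mean where none was called. Patterns like that of Nr2e3, the gene with the smallest F test p, were sought among genes with a mean of at least 2 RPKM. Length, GC content and shared exon bases came from a GENCODE annotation of a later build than mm9, and 98.2% of genes had a value. Replicate numbers were not used to pair libraries. Same-numbered libraries deviated together with correlations from -0.515 to 0.537, not all over 0.1.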

Additional observations from a re-analysis of the deposited data

How the results depend on the processing

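With all libraries kept, 252 of 264 log2 changes of the 8 genes kept their direction and their side of the threshold, 1 passed it (Nr2e3 in BALB/c minus C57BL/6J with photoreceptor size factors) and 11 changed sign, reaching at most 0.24 in size on the other side of 0. In A/J minus C57BL/6J, Nr2e3 was 0.01 with quantile normalization, 0.24 with size factors from photoreceptor genes and 0.03 after GC correction, Neurod1 was -0.03 after GC correction, and Thrb was 0.13 with photoreceptor size factors. In BALB/c minus C57BL/6J, Nrl was 0.04 with photoreceptor size factors and Otx2 -0.15 as deposited. In A/J minus BALB/c, Thrb was -0.04 after GC correction, and Rxrg was 0.02 as deposited, 0.12 with photoreceptor size factors and 0.13 after GC correction. As deposited, the median of all genes shifted by -0.11, -0.17 and 0.05 in A/J minus C57BL/6J, in BALB/c minus C57BL/6J and in A/J minus BALB/c, and with photoreceptor size factors by 0.22, 0.06 and 0.15. Photoreceptor size factors called 1 of the 8 genes in BALB/c minus C57BL/6J.

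With 1 library left out, the number of the 8 genes called ranged from 0 to 0 in both comparisons with C57BL/6J, and from 0 to 1 in A/J minus BALB/c and in the F test. Log2 changes in A/J minus C57BL/6J ranged from -0.40 to 0.01 for Crx, -0.04 to 0.03 for Nr2e3, -0.01 to 0.44 for Neurod1 and -0.22 to 0.09 for Thrb. In BALB/c minus C57BL/6J they ranged from -0.14 to 0.15 for Nrl, -0.10 to 0.15 for Otx2 and -0.34 to 0.10 for Neurod1, and in A/J minus BALB/c from -0.14 to 0.03 for Rxrg. As said above, omitting the libraries with the largest SD lowers the spread that limma estimates. Without both A/J 3 and C57BL/6J 3, 2, 1, 6 and 5 of the 8 genes were called in A/J minus C57BL/6J, in BALB/c minus C57BL/6J, in A/J minus BALB/c and in the F test. Crx was then 0.09 and Thrb 0.19 in A/J minus C57BL/6J, and Nrl 0.15 and Otx2 -0.10 in BALB/c minus C57BL/6J. The cause was not tested.

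Over all genes, the count called ranged over single omissions from 153 to 3630 in A/J minus C57BL/6J, 149 to 630 in BALB/c minus C57BL/6J and 79 to 4463 in A/J minus BALB/c, each highest without A/J 3. It was 5043, 1877 and 7700 in the absence of both libraries, and 7883 in the F test. In A/J minus C57BL/6J it was 141 with these strains fitted alone and 1030 with photoreceptor size factors, which gave 991 in the F test. With the replicate number as a block, 0 of the 8 genes were called in each comparison, and 406, 398, 373 and 604 genes overall. Of 756 counts of list genes called, 545 stayed within 1.5 times and 211 did not. Because the depth is unknown, precision at the level of Thrb and Rxrg could not be given.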
